A study of Danio rerio with 23 samples.

Results

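The genes described here encode the zebrafish proteasome, with its activators and the chaperones that build it. They were chosen by name, as genes whose symbol in the array's probe annotation begins with psma to psmg followed by a digit. Of 20908 genes with a symbol of their own on the array, 57 had such a symbol. Of these 57, psmc3ip (a meiotic recombination protein) and psme3ip1 (a partner of an activator) are not parts of the complex, and the other 55 were counted by class. These were 8 genes of the outer (alpha) ring of the 20S core, 7 of its inner (beta) ring, 7 of the immunoproteasome group, 7 ATPases and 13 other subunits of the 19S cap, 6 activators and inhibitors, and 7 assembly factors. No filter on signal was applied, so all 55 were tested. Each gene was followed on its brightest probe set over the 23 arrays, 50 genes were never below the median signal of an array, and 5 were below it in at least 1 array. Probe sets that carried both psma2a and psma2b, or both psmb8a and psmb13a, were left out (2 probe sets).

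The proteasome is the protease that removes most short-lived, damaged and misfolded proteins from the cytosol and nucleus. Its 20S core is a barrel in which the active sites face an inner chamber, and the 19S cap binds ubiquitin-tagged proteins, removes the ubiquitin, unfolds them with a ring of ATPases and threads them into the core. Interferon exchanges the catalytic subunits for inducible ones, which makes the immunoproteasome, whose peptides are loaded on MHC class I. In vertebrates the genes of the core and cap are known to be raised together by the transcription factor Nrf1 (nfe2l1) when proteasome capacity falls short.

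Liver RNA was hybridised to ZebGene ST arrays, and the authors deposited log2 signals. The first batch named in the labels held HBx,src fish given Oligo-Fucoidan (OF, 300 mg/kg by oral gavage for one month) before 40 Gy (n = 4), HBx,src fish with 40 Gy alone (n = 3), and WT fish with OF and 40 Gy (n = 2) or 40 Gy alone (n = 2). The second held HBx,src,p53- fish with OF and 10 Gy (n = 5) or 10 Gy alone (n = 3), and WT fish with OF and 10 Gy (n = 2) or 10 Gy alone (n = 2). The methods also describe gavage with OF after the irradiation, so OF need not have been given before it alone. Groups with OF are called OF+R and those with irradiation alone R. Every fish was irradiated and 6 months old, so nothing here compares irradiated with unirradiated liver. HBx, an antigen of hepatitis B virus, and the src oncogene were driven in hepatocytes by the fabp10a promoter, and the HBx,src,p53- fish were p53-/+ as well. Transgenic fish were female and overfed with Artemia (diet-induced obesity), while WT fish had a normal diet and no stated sex, so genotype and diet cannot be told apart. The labels do not say whether arrays of a group came from separate animals, so p-values measure the spread between these arrays. The labels name γ-irradiation and the methods an X-ray source.

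Array medians were 2.02 to 2.21 in the 40 Gy batch and 2.46 to 2.58 in the 10 Gy batch, so levels were compared only within a batch. The mean of 16 hepatocyte markers lay between 11.7 and 12.7 in every array. Several marker lists differed between groups in ways that touch the results below. The mean of 20 ovary and oocyte markers was 6.43 and 6.64 in the WT 10 Gy R arrays and at most 3.55 in the other 21 (next highest, an HBx,src R array). The yolk precursor gene vtg2, an oestrogen response of female liver, was at 3.69 and 6.51 in HBx,src,p53- OF+R replicates 1 and 4, against 13.85 to 13.90 in the other 3 replicates and 13.90 to 13.93 in HBx,src,p53- R. In bulk liver, fewer cells of a type and less RNA per cell cannot be told apart.

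For 42 of the 55 genes the highest of the 8 group means was that of HBx,src,p53- R liver. That count crosses the batches and its share over all genes was not counted, so it is not read as a result about these genes. The mean log2 signal over all 55 genes was 6.45, 6.06, 5.97, 6.30 and 6.13 in HBx,src,p53- OF+R arrays and 6.86, 6.45 and 6.77 in HBx,src,p53- R arrays. In the same batch it was 6.24 and 6.10 in WT OF+R and 5.90 in both WT R arrays. In the 40 Gy batch it was 4.86, 5.03, 5.57 and 5.06 in HBx,src OF+R, 4.69, 5.18 and 5.21 in HBx,src R, 5.40 and 5.60 in WT OF+R, and 4.92 and 5.02 in WT R. The OF+R arrays lay mostly below the R arrays in HBx,src,p53- fish and above them in WT fish, and the classes were not alike in this.

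**Figure D1:**
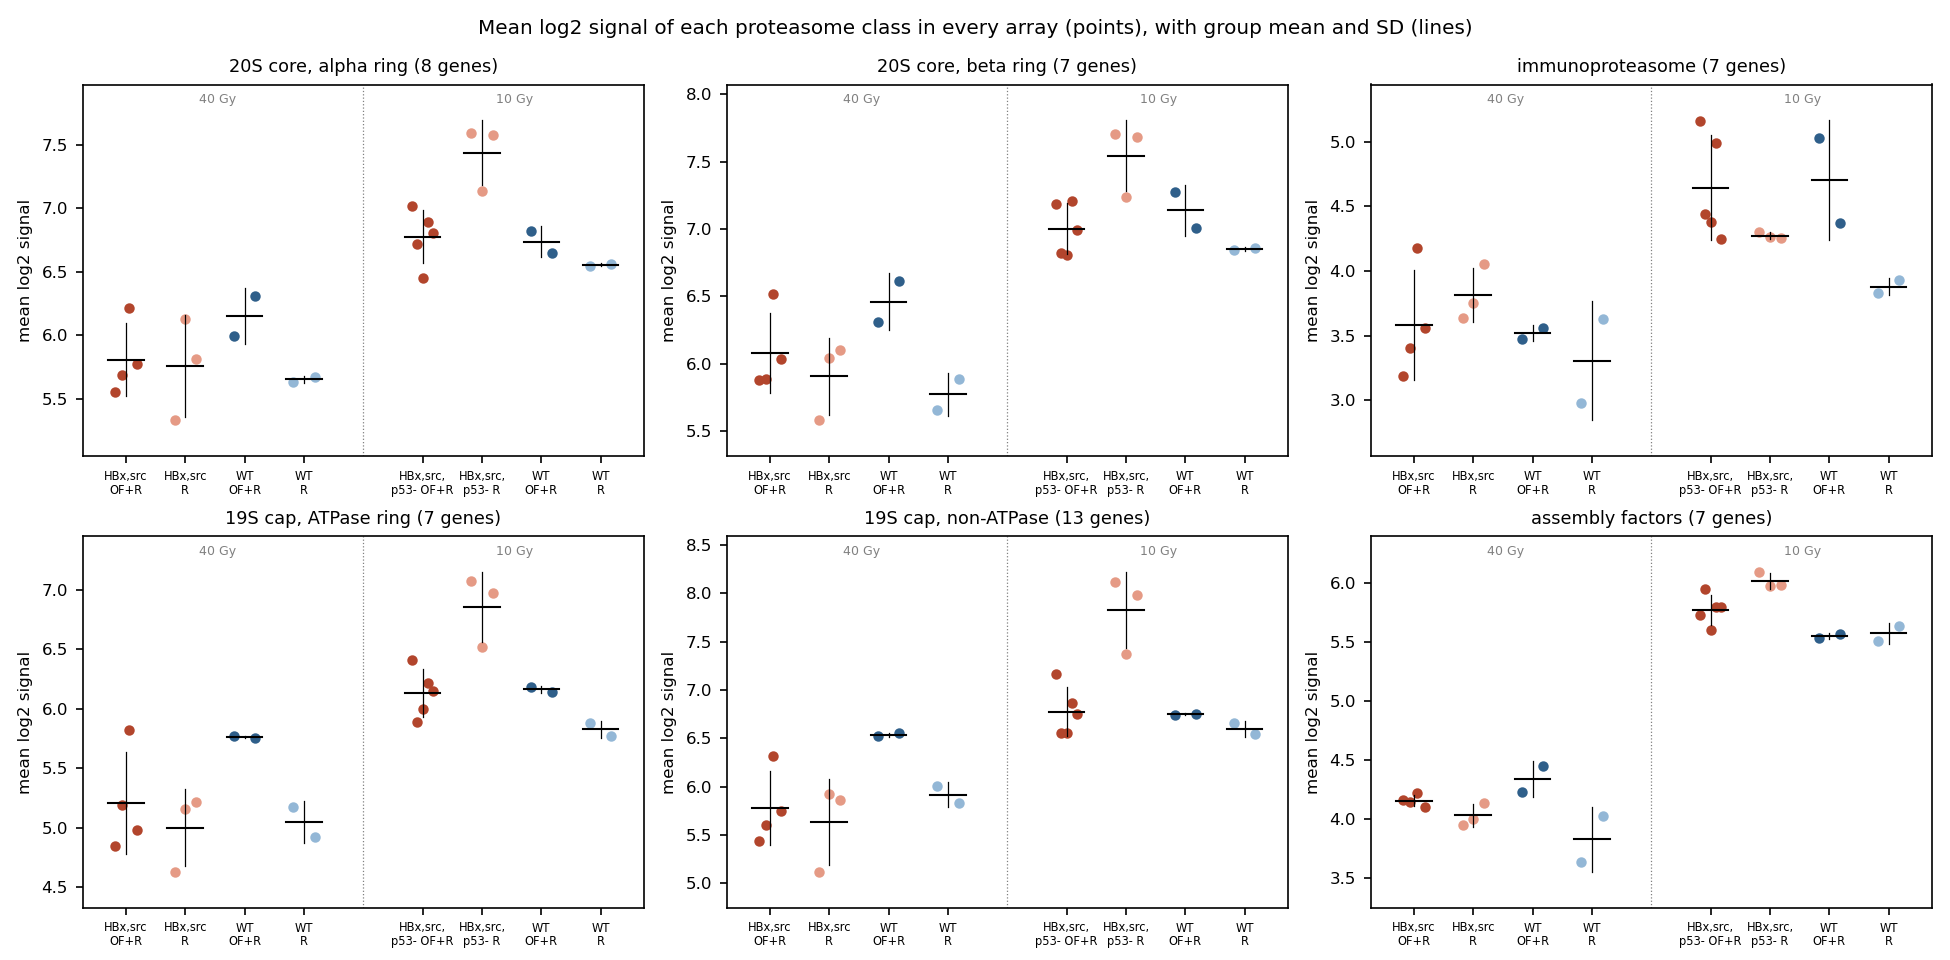
Mean log2 signal of 6 proteasome classes in each array (points), by group along the x axis, with the group mean (horizontal line) and SD (vertical line); levels are comparable within 40 Gy or within 10 Gy only. In the 19S cap, alpha ring and assembly factor panels the 3 HBx,src,p53- R arrays stand above the other 10 Gy arrays. In the beta ring panel WT OF+R replicate 1 (7.27) is above the lowest of them (7.24), and in the immunoproteasome panel they lie at 4.26 to 4.30.

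In HBx,src,p53- fish at 10 Gy, most of the genes that fell with OF encode the 19S cap. Of the 55 genes 14 fell and 0 rose at an adjusted p under 0.05 (limma, Benjamini-Hochberg over all probe sets), where 3.29% of all genes fell and 2.51% rose. The median log2 fold change of the 55 was -0.62, against 0.00 for all genes. Of the 13 non-ATPase cap subunits, 8 fell (psmd2, psmd3, psmd4a, psmd6, psmd8, psmd12, psmd13 and psmd14) and all 13 had a negative fold change, with a class median of -1.11. Of the 7 ATPases 3 fell (psmc1a, psmc3 and psmc4, median -0.74). Of the 8 alpha subunits 3 fell (psma3, psma5 and psma8, median -0.74), and of the 7 beta subunits 0 passed (median -0.53). At an unadjusted p under 0.05 (limma) 5 of the 7 beta subunits were lower, where 2241 of 20908 genes were. No immunoproteasome gene, activator or assembly factor passed in either direction.

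The scaffold subunit psmd2, which receives ubiquitin-like domains of shuttle proteins at the base of the cap, read 9.30, 8.73, 8.76, 8.97 and 8.83 in HBx,src,p53- OF+R and 10.16, 9.93 and 10.00 in HBx,src,p53- R. The 2 groups did not overlap, and psmd2 fell by 1.11 on the log2 scale (standard error 0.21, adjusted p = 0.0077). psmd3, a structural subunit of the lid, read 7.14, 7.30, 7.19, 7.71 and 7.12 in OF+R, against 8.61, 8.45 and 8.40 in R, again without overlap (log2 fold change -1.20, standard error 0.21, adjusted p = 0.0039). psmd14, the deubiquitinase that cuts ubiquitin chains off the substrate, read 6.57, 6.05, 6.28, 6.37 and 6.29 in OF+R and 7.65, 7.16 and 7.66 in R (log2 fold change -1.17, standard error 0.24, adjusted p = 0.012). psmd13, another lid subunit, had a log2 fold change of -1.04 (adjusted p = 0.016). Every OF+R array was below every R array for 26 of the 55 genes, and 8.57% of all genes showed that.

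Among the ATPases, which pull the substrate into the core, psmc3 read 6.15, 5.29, 5.66, 5.80 and 5.94 in HBx,src,p53- OF+R and 6.90, 6.53 and 6.89 in HBx,src,p53- R (log2 fold change -1.01, adjusted p = 0.024). psmc4 had a log2 fold change of -1.04 (adjusted p = 0.024) and psmc1a one of -0.74 (adjusted p = 0.022). In the alpha ring psma8, whose mammalian namesake is an alpha subunit of testis, read 7.71, 7.30, 7.14, 7.42 and 7.58 in OF+R and 8.30, 7.89 and 8.57 in R (log2 fold change -0.82, standard error 0.18, adjusted p = 0.020). Every OF+R array was below every R array for psma8, as for 8.57% of all genes. psma3 had a log2 fold change of -1.13 (adjusted p = 0.034) and psma5 one of -1.16 (adjusted p = 0.045). psmd1, the largest cap subunit, missed the threshold at -0.84 (adjusted p = 0.12), as did psmd11a at -1.24 (adjusted p = 0.064).

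**Figure D2:**
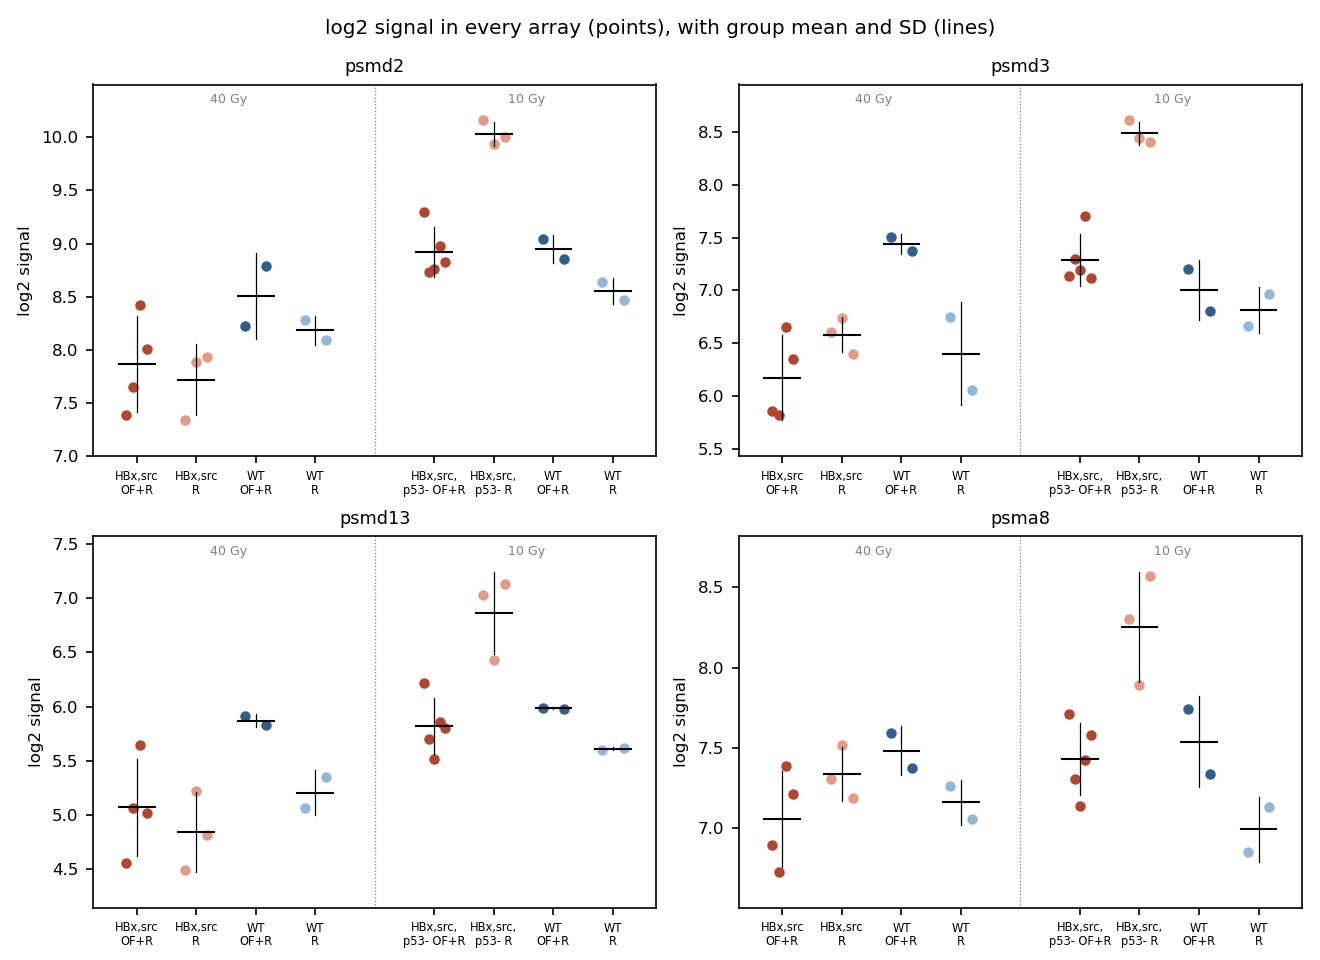
log2 signal of psmd2, psmd3, psmd13 and psma8 in each array (points) by group, with group mean and SD (lines); 40 Gy and 10 Gy arrays stand on either side of the dotted line. In all 4 panels the HBx,src,p53- R arrays are above the HBx,src,p53- OF+R arrays, as they are for 8.57% of all genes. psmd2 runs from 9.93 to 10.16 in R against 8.73 to 9.30 in OF+R.

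The count depended on single arrays. Without HBx,src,p53- R replicate 1 or replicate 3, 2 genes fell, and without OF+R replicate 2, 9 did. Without the 2 OF+R arrays of low vitellogenin, 10 fell, at a median of -0.71. The mean of the hepatocyte markers was 12.38 to 12.61 in OF+R and 11.91 to 12.02 in R. Of these 16 markers 3 were called higher and 0 lower, where 2.51% of all genes were higher and 3.29% lower. At an unadjusted p under 0.05 (limma) 13 of 16 were higher, where 2389 of 20908 genes were. The neutrophil and macrophage list (14 markers) ranged from 4.24 to 5.23 in OF+R and from 4.53 to 4.94 in R, and the exocrine pancreas list (14) from 5.46 to 8.62 in OF+R and 7.14 to 9.26 in R. Whether these shifts have a part in the proteasome values was not tested.

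HBx,src,p53- R liver also exceeded WT R liver. At 10 Gy 18 of the 55 genes were higher and 0 lower, where 5.35% of all genes were higher and 8.44% lower, and the median log2 fold change was 1.00 against 0.01 for all genes. The cap led again. Of the 13 non-ATPase subunits 8 were higher (psmd1, psmd2, psmd3, psmd4a, psmd11b, psmd12, psmd13 and psmd14; median 1.15) and of the 7 ATPases 4 (psmc1a, psmc3, psmc4 and psmc5; median 1.07). In the core 2 of 8 alpha genes (psma8 and psma6b; median 0.94) and 1 of 7 beta genes (psmb1; median 0.67) were higher. The proteasome activator psme4b, the zebrafish gene for PA200, and the chaperones psmg1 and psmd5 complete the 18. Every HBx,src,p53- array was above every WT array for 45 of the 55 genes, and for 22% of all genes.

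In this comparison psmd3 read 8.61, 8.45 and 8.40 in HBx,src,p53- R and 6.66 and 6.97 in WT R (log2 fold change 1.67, standard error 0.26, adjusted p = 0.00024). psmd2 read 10.16, 9.93 and 10.00 in HBx,src,p53- R and 8.64 and 8.47 in WT R (log2 fold change 1.48, adjusted p = 0.0012). psma8 differed by 1.26 (adjusted p = 0.0014), psmc3 by 1.29 (adjusted p = 0.0083) and psmd13 by 1.25 (adjusted p = 0.0080). psme4b, whose product caps the core without ATP and is known in mammals from histone turnover in germ cells and DNA repair, read 7.69, 7.29 and 7.23 in HBx,src,p53- R and 6.09 and 6.01 in WT R (log2 fold change 1.36, adjusted p = 0.0071). psmg1, a chaperone that helps the alpha ring to form, read 6.34, 5.92 and 5.78 in HBx,src,p53- R and 4.89 and 4.97 in WT R (log2 fold change 1.08, adjusted p = 0.011). The remaining calls named by the rule were psmd1 (1.26), psmd5 (1.26), psmd4a (1.13), psmc5 (1.09), psmc4 (1.04), psma6b (1.03), psmb1 (1.00) and psmc1a (0.76), given as log2 fold changes.

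The WT R arrays of this comparison are those with ovary and oocyte signal, where 19 of 20 markers were lower in HBx,src,p53- R, so the difference between genotypes and the difference in that signal cannot be told apart. In the same comparison 13 of 14 neutrophil and macrophage markers had positive fold changes, with ptprc, lcp1 and lyz (3) called higher. Of 16 hepatocyte markers 14 had negative fold changes, with 2 called lower. Of all genes 5.35% were called higher and 8.44% lower, and 10742 of 20908 had positive fold changes. The part of the marker shifts was not tested. With either WT R array left out 6 or 5 genes were called, and without HBx,src,p53- replicate 1 or 3, 7 or 9. After OF, between HBx,src,p53- OF+R and WT OF+R 0 genes passed in either direction (limma; 1 higher and 0 lower at an unadjusted p under 0.05), the median was -0.02, and 0.383% of all genes were higher and 0.674% lower. Without the 2 low-vitellogenin arrays 1 gene was called higher. The 95% interval of psmd2, taken on 15 degrees of freedom, ran from -0.55 to 0.49, and that of psmd3 from -0.23 to 0.80.

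The response to OF at 10 Gy differed between the genotypes in 4 genes. The test of the difference (OF effect in HBx,src,p53- minus OF effect in WT) called psma8 (-1.37, adjusted p = 0.016), psmd2 (-1.50, adjusted p = 0.022), psmd3 (-1.39, adjusted p = 0.031) and psmd13 (-1.42, adjusted p = 0.048), all toward a more negative effect in HBx,src,p53- fish. In WT fish their own log2 fold changes were 0.55, 0.39, 0.19 and 0.37, none of which passed. Of all genes 1.75% were lower and 5.05% higher in this test, and the median of the 55 was -0.86 against -0.02 for all genes. The count of 4 became 0 without WT R replicate 1 or WT OF+R replicate 1, 1 without WT R replicate 2 or HBx,src,p53- R replicate 1, and 2 without WT OF+R replicate 2 or HBx,src,p53- OF+R replicate 3 or 5. It rests on the WT R arrays with oocyte signal too, and the part of that signal was not tested. The WT OF+R and R arrays also differed in the means of the oestrogen response (3.82 and 12.16), exocrine pancreas (5.00 and 7.05) and erythrocyte lists (6.02 and 3.84). The part of those differences was not tested either.

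At 40 Gy the direction in WT fish was upward. Of the 55 genes 5 rose with OF and 0 fell, where 4.07% of all genes rose and 0.751% fell. The 5 were the ATPases psmc6 and psmc2, the alpha subunit psma4, the beta subunit psmb2 and the assembly chaperone psmg2. In HBx,src fish 2 rose and 0 fell, psmc6 and psmg2, where 2.11% of all genes rose and 0.225% fell. The median over the 55 was 0.50 in WT (0.07 for all genes) and 0.08 in HBx,src (0.02 for all genes). That of HBx,src turned to -0.11 with quantile normalization over all arrays and to -0.10 with quantile normalization within each batch, and that of WT shrank to 0.18 and 0.19. Without HBx,src R replicate 1 or OF+R replicate 3 the HBx,src median was -0.05.

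psmc6 read 6.09, 6.54, 7.26 and 6.41 in HBx,src OF+R and 4.70, 5.57 and 5.74 in HBx,src R (log2 fold change 1.24, standard error 0.27, adjusted p = 0.032). In WT fish it read 6.65 and 7.35 in OF+R and 4.82 and 5.30 in R (log2 fold change 1.94, standard error 0.36, adjusted p = 0.0081). OF+R and R arrays did not overlap in either genotype, and every OF+R array was above every R array for 9.39% of all genes in HBx,src fish and 28.4% in WT fish. psmg2, which works with psmg1 in starting the alpha ring, read 5.21, 5.02, 4.84 and 5.12 in HBx,src OF+R and 4.36, 4.39 and 3.97 in HBx,src R (log2 fold change 0.81, adjusted p = 0.048), and 4.97 and 4.91 in WT OF+R against 2.58 and 3.49 in WT R (log2 fold change 1.91, standard error 0.25, adjusted p = 0.0012). At 10 Gy neither gene moved past the threshold with OF, at -0.64 and 0.14 in HBx,src,p53- fish and 0.09 and -0.28 in WT fish for psmc6 and psmg2.

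**Figure D3:**
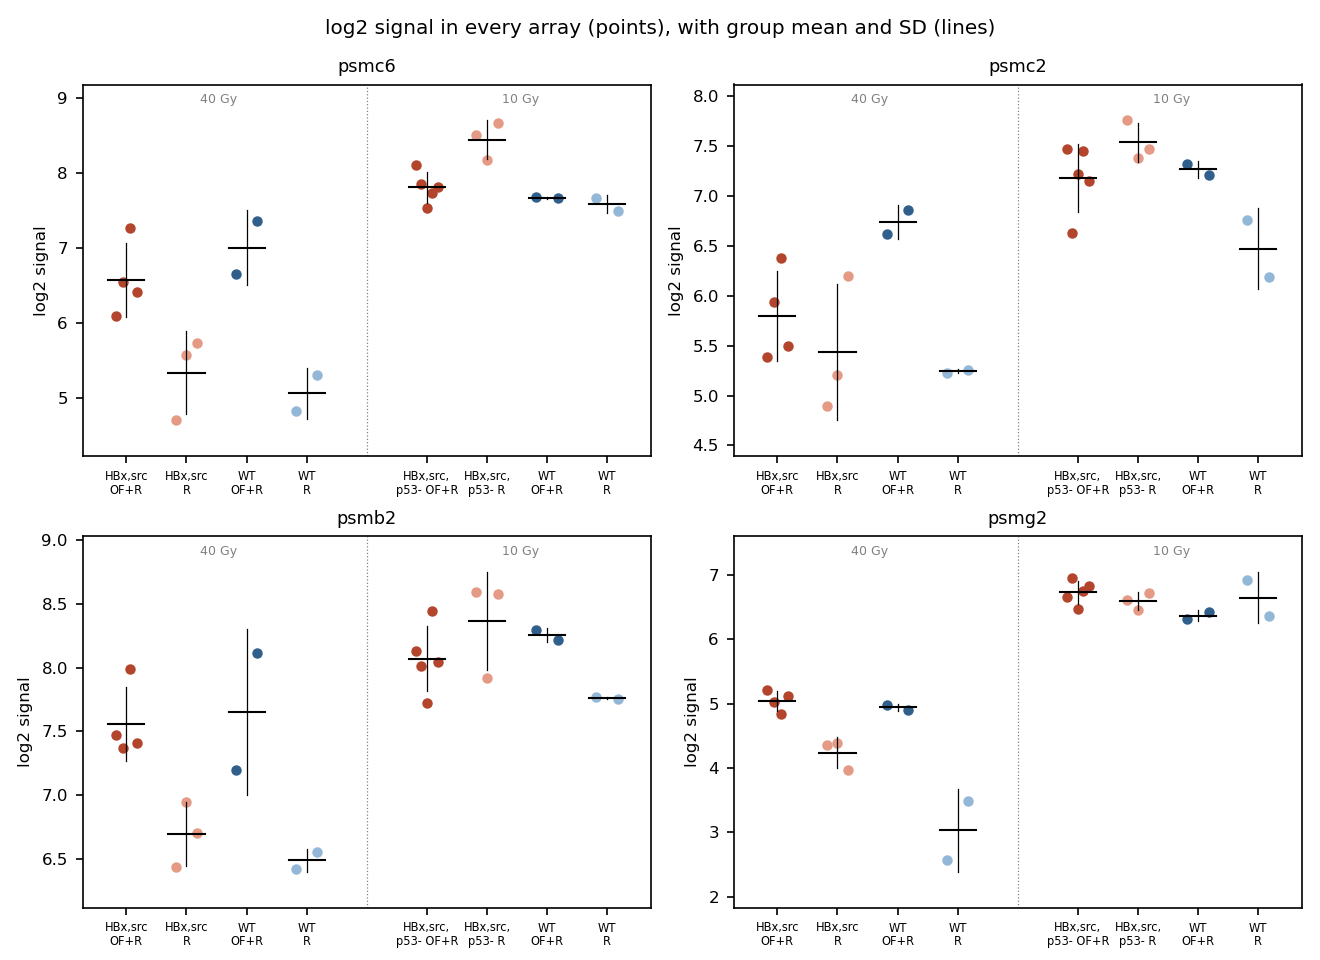
log2 signal of psmc6, psmc2, psmb2 and psmg2 in each array (points) by group, with group mean and SD (lines); 40 Gy on the left of the dotted line, 10 Gy on the right. The 2 WT OF+R arrays at 40 Gy lie above the 2 WT R arrays in all 4 panels, for psmc6 at 6.65 and 7.35 against 4.82 and 5.30, as they do for 28.4% of all genes.

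Of the other 3 genes that rose in WT fish at 40 Gy, psmc2 read 6.62 and 6.86 in OF+R and 5.23 and 5.26 in R (log2 fold change 1.50, adjusted p = 0.040), psma4 read 6.14 and 6.60 in OF+R and 5.37 and 5.51 in R (0.93, adjusted p = 0.034), and psmb2 read 7.19 and 8.11 in OF+R and 6.42 and 6.55 in R (1.17, adjusted p = 0.044). None of the 3 overlapped between OF+R and R, and every OF+R array was above every R array for 28.4% of all genes. In HBx,src fish the values were 0.37 for psmc2, 0.27 for psma4 and 0.86 for psmb2 (adjusted p = 0.72, 0.61 and 0.075). At an unadjusted p under 0.05 (limma) the OF effect at 40 Gy differed between the genotypes in 6 of the 55 genes, all lower. Of 20908 genes 1442 were lower and 767 higher at that threshold. After adjustment the difference was called for 0 genes, where 0.0526% of all genes were higher and 0.172% lower, and the median was -0.44. Without either WT R array 1 gene was called in that test. In WT fish, without R replicate 1, 3 genes were called, of which 2 are among the 5, and without R replicate 2, 4 genes (1 of them lower), of which again 2 are among the 5, psmc6 and psmg2 both times. Without OF+R replicate 2, psmg2 alone was called, and fitting the 2 groups on their own called 0. In HBx,src fish 0 or 1 gene was called without any single array of its groups, and 0 with its groups fitted on their own. The neutrophil and macrophage list averaged 4.59 and 5.15 in WT OF+R against 4.00 and 3.35 in WT R at 40 Gy. Of its 14 markers 13 had positive fold changes and 1 was called higher, where 4.07% of all genes rose. At an unadjusted p under 0.05 (limma) 8 of 14 were higher, where 3447 of 20908 genes were. The exocrine pancreas list averaged 3.80 in WT OF+R and 5.35 in WT R, with negative fold changes for all 14 markers and 0 called. The part of both lists was not tested.

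Between HBx,src and WT fish after OF and 40 Gy 2 cap genes were lower and 0 higher, where 1.11% of all genes were lower and 0.287% higher (median of the 55, -0.35). psmd1 read 6.16, 6.52, 6.84 and 6.51 in HBx,src OF+R and 8.23 and 8.29 in WT OF+R (log2 fold change -1.75, standard error 0.33, adjusted p = 0.013). psmd3 read 5.86, 5.82, 6.66 and 6.35 in HBx,src OF+R and 7.51 and 7.37 in WT OF+R (log2 fold change -1.27, adjusted p = 0.015). Neither was called with 1 of the WT OF+R arrays left out. Without OF, 1 gene was higher and 0 lower in HBx,src than in WT R liver, where 1.29% of all genes were higher and 1.4% lower (median 0.09). It was psmg2, at 4.36, 4.39 and 3.97 in HBx,src R and 2.58 and 3.49 in WT R (log2 fold change 1.21, adjusted p = 0.013). This call was lost without WT R replicate 1 (log2 fold change 0.75, adjusted p = 0.13), where a different gene was called, lower, and with the groups fitted on their own 0 were called. Without WT R replicate 2 or HBx,src R replicate 2, 2 genes were called, psmg2 and 1 that was lower. The oestrogen response list (7 genes, mostly vitellogenins) averaged 11.13 to 12.08 in HBx,src OF+R against 5.51 and 5.68 in WT OF+R, and 10.72 to 11.70 in HBx,src R against 3.93 and 3.87 in WT R, and its part in these differences was not tested.

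**Figure D4:**
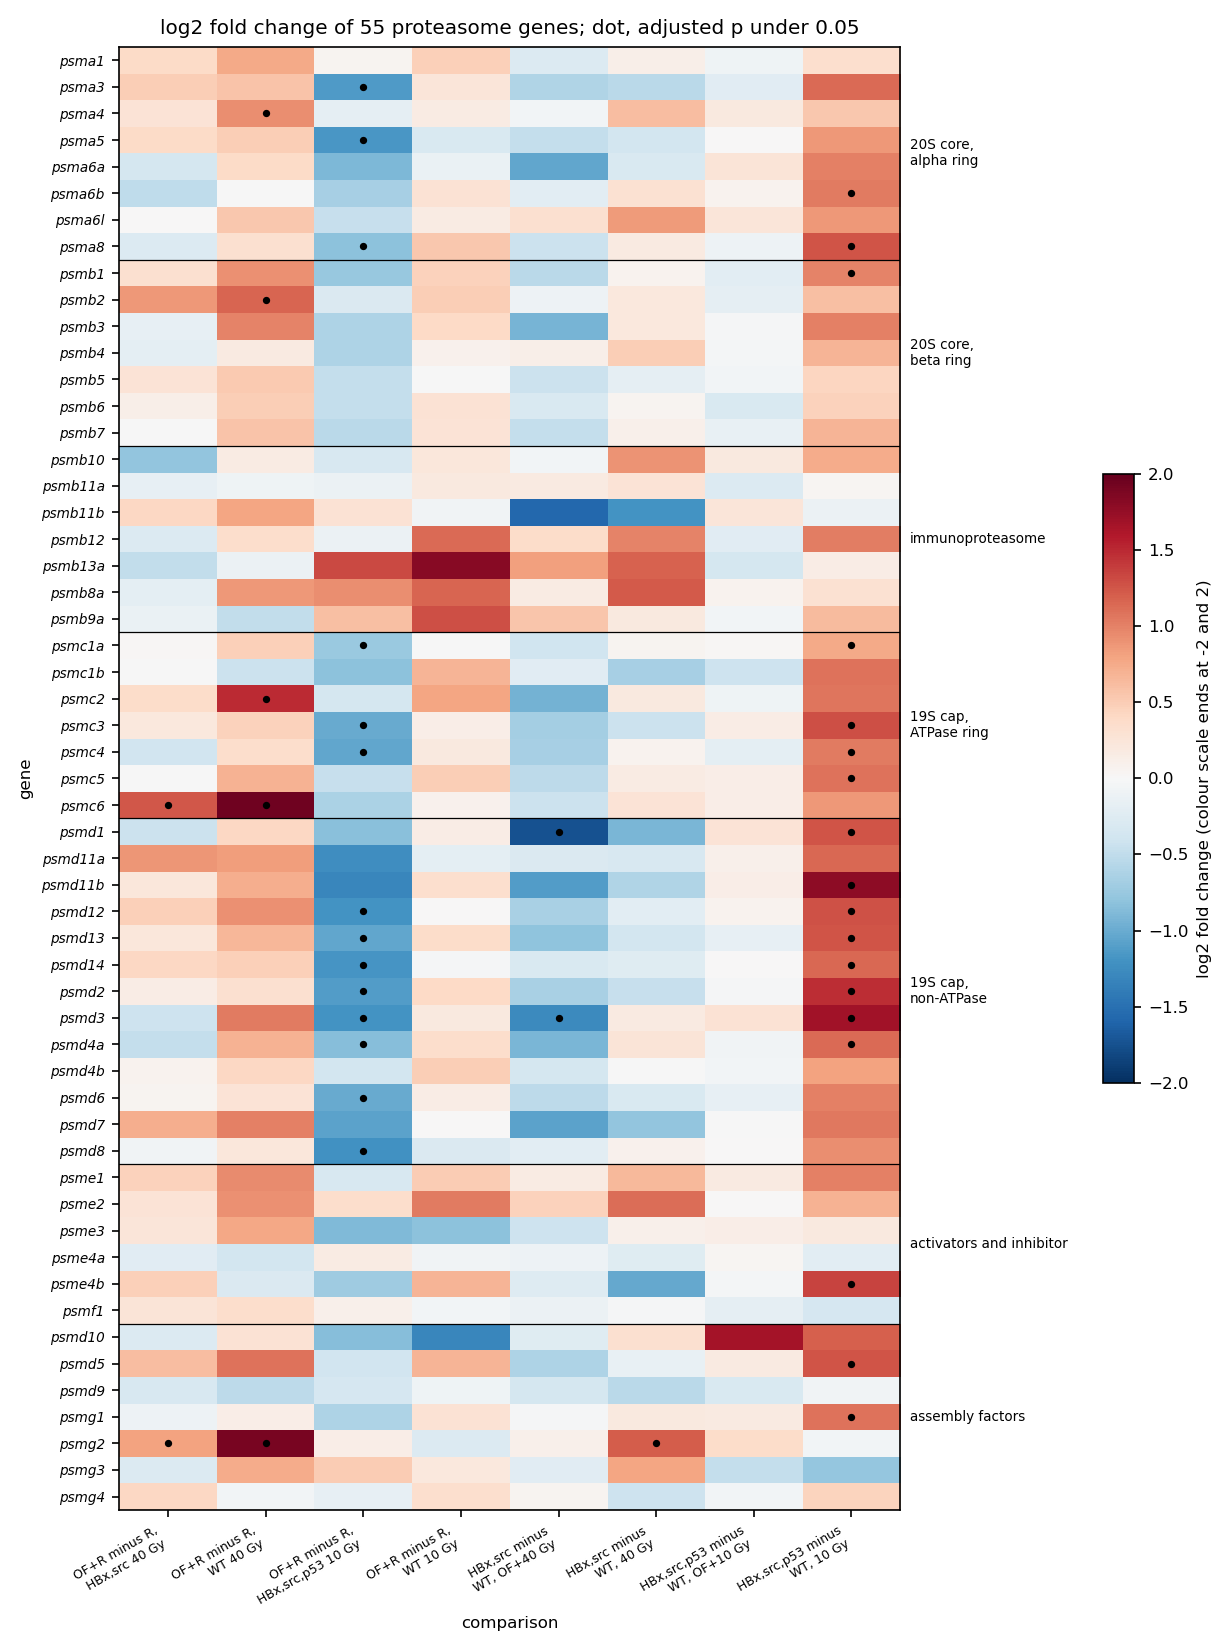
log2 fold change of the 55 proteasome genes (rows, by class) in 8 comparisons (columns), red for higher and blue for lower in the group named first, with a dot where the adjusted p was under 0.05. The blue column of HBx,src,p53- OF+R minus R holds 14 dots and the red column of HBx,src,p53- minus WT at 10 Gy holds 18.

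In WT fish at 10 Gy 0 of the 55 genes were called with OF, where 2.63% of all genes rose and 6.56% fell. At an unadjusted p under 0.05 (limma) 7 of the 55 were higher and 2 lower, where 2486 of 20908 genes were higher and 2588 lower. The median was 0.23 against 0.03 for all genes. psmd10, the assembly chaperone known in mammals as gankyrin, read 4.21 and 4.29 in OF+R and 5.17 and 5.94 in R (log2 fold change -1.31, adjusted p = 0.28). psmc3ip, the meiotic gene outside the complex, did fall (-1.73, adjusted p = 0.00030), in the comparison in which 19 of 20 ovary and oocyte markers fell and 8 of 9 erythrocyte markers rose.

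Among the catalytic subunits of the standard core, psmb5 carries the chymotrypsin-like, psmb6 the caspase-like and psmb7 the trypsin-like site. None passed in any comparison. With OF at 10 Gy in HBx,src,p53- fish their log2 fold changes were -0.48, -0.48 and -0.53 (adjusted p = 0.21, 0.16 and 0.40), and with OF at 40 Gy in WT fish 0.52, 0.49 and 0.56 (adjusted p = 0.31, 0.29 and 0.49). psmb5 read 6.32, 5.90, 5.81, 6.36 and 6.27 in HBx,src,p53- OF+R and 6.91, 6.34 and 6.58 in HBx,src,p53- R, so that 1 OF+R array exceeded the lowest R array.

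Of the inducible counterparts, psmb8a, psmb9a and psmb10 replace psmb5, psmb6 and psmb7, and psmb12 and psmb13a are further inducible beta genes found in fish. psmb11a and psmb11b are named for the thymus-specific subunit of mammals and were dim, psmb11a at 1.31 to 2.06 in all 23 arrays and psmb11b at 1.48 to 4.19. In the RefSeq annotation of the GRCz12tu assembly psmb13a, psmb8a, psmb12 and psmb9a are neighbours on chromosome 19, with no protein-coding gene between them. None of the 7 was called in any comparison. With OF at 10 Gy psmb8a, psmb9a and psmb13a had positive fold changes in both genotypes. psmb11b had a log2 fold change of -1.57 in HBx,src against WT fish after OF and 40 Gy (adjusted p = 0.075) and of -1.20 without OF (adjusted p = 0.17).

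psmb8a read 6.98, 6.65, 6.16, 7.14 and 6.05 in HBx,src,p53- OF+R and 6.00, 5.60 and 5.38 in HBx,src,p53- R (log2 fold change 0.94, adjusted p = 0.17), and 6.86 and 6.19 in WT OF+R against 5.36 and 5.35 in WT R (1.17, adjusted p = 0.20). psmb13a read 6.75, 5.42, 4.97, 6.31 and 4.66 in HBx,src,p53- OF+R and 4.02, 4.34 and 4.56 in HBx,src,p53- R (1.32, adjusted p = 0.0998), and 6.47 and 5.48 in WT OF+R against 4.47 and 3.85 in WT R (1.82, adjusted p = 0.082). The OF+R arrays were above the R arrays for both genes and both genotypes, without passing the test, and that was so for 9.18% of all genes in HBx,src,p53- fish and 30.4% in WT fish. psmb9a had a log2 fold change of 0.60 in HBx,src,p53- fish and 1.28 in WT fish (adjusted p = 0.44 and 0.16), and psmb12 one of -0.11 and 1.14 (adjusted p = 0.95 and 0.40). psmb10 had log2 fold changes of -0.32 and 0.23. At 40 Gy the fold changes of psmb8a were -0.20 in HBx,src and 0.87 in WT fish and those of psmb9a -0.13 and -0.49, none of which passed.

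**Figure D5:**
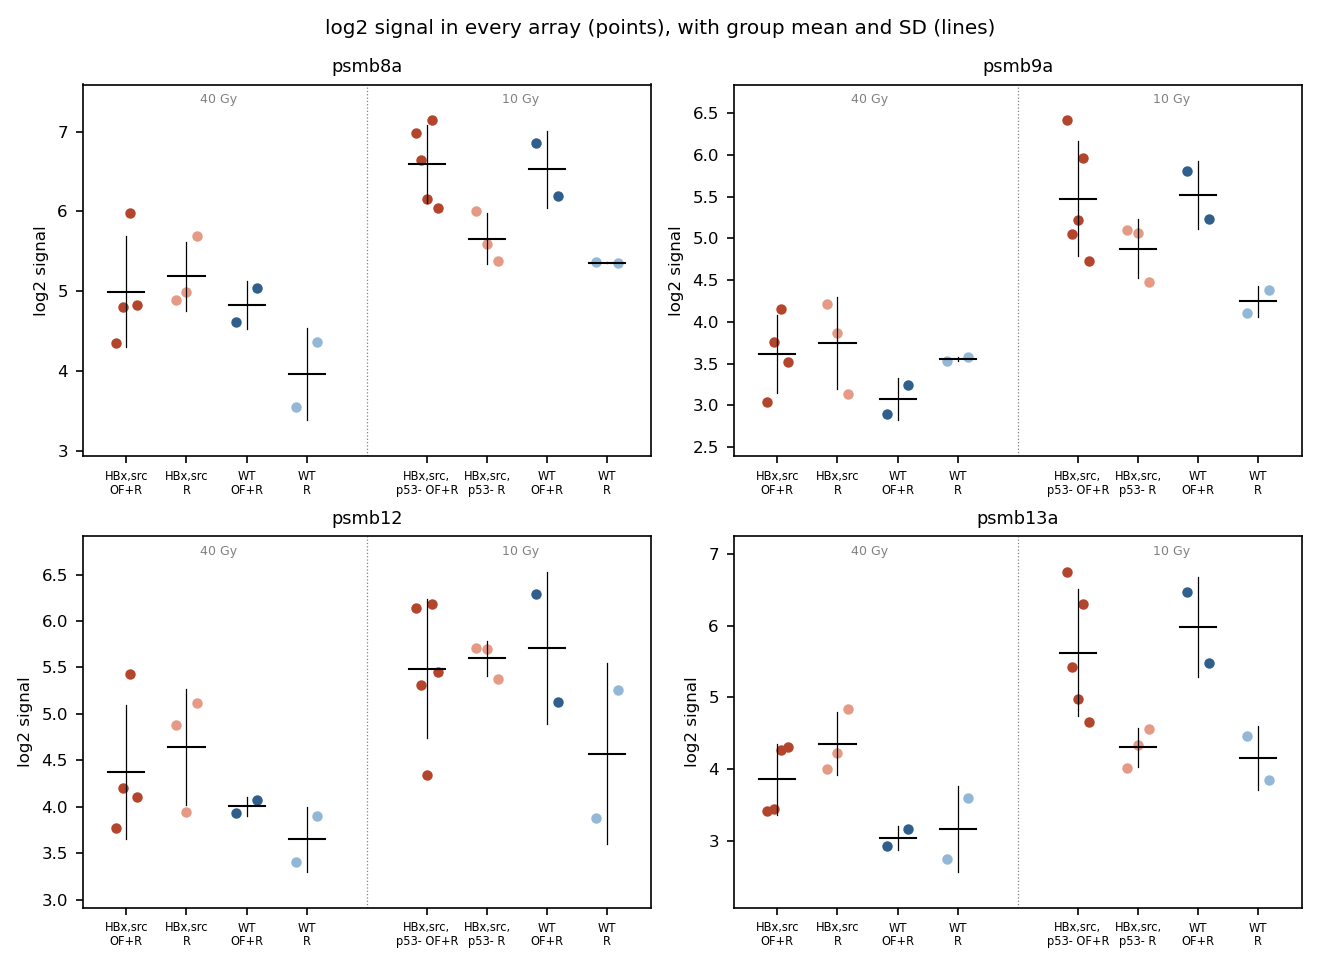
log2 signal of psmb8a, psmb9a, psmb12 and psmb13a in each array (points) by group, with group mean and SD (lines); 40 Gy left and 10 Gy right of the dotted line. At 10 Gy psmb13a is at 4.66 to 6.75 in HBx,src,p53- OF+R against 4.02 to 4.56 in R, and the highest of those 5 arrays are replicates 1 and 4.

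Within HBx,src,p53- OF+R psmb8a, psmb9a, psmb12 and psmb13a varied together, and this was not particular to inducible genes. The means of the alpha ring, beta ring, ATPases, non-ATPase cap and activators were also highest in replicates 1 and 4. That of the assembly factors was highest in replicate 2. Beta ring means were 7.18 and 7.20 in replicates 1 and 4 against 6.81 to 6.99 in the other 3. Those of the non-ATPase cap were 7.16 and 6.86 against 6.55 to 6.75. Replicates 1 and 4, the arrays of low vitellogenin, held the highest values of psmb8a (6.98 and 7.14), psmb9a (6.42 and 5.96), psmb12 (6.14 and 6.18) and psmb13a (6.75 and 6.31). The same arrays had the highest erythrocyte marker means, 5.38 and 5.05 against 3.92 to 4.21 in the other 3. Without them the log2 fold changes in HBx,src,p53- fish became 0.63 for psmb8a, 0.12 for psmb9a and 0.71 for psmb13a. The WT OF+R arrays at 10 Gy likewise had vtg2 at 3.96 and 3.18, against 13.71 and 13.89 in WT R, and erythrocyte marker means of 6.10 and 5.95 against 4.10 and 3.57. T and B lymphocyte markers were dim throughout (list means of 1.77 to 2.34), and the part of the erythrocyte and vitellogenin differences in the immunoproteasome values was not tested.

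The inducible subunit was then set against the one it replaces, array by array, in an exact two-sided permutation test added after the values were seen (3 pairs in 4 comparisons, 12 tests). The difference psmb8a minus psmb5 averaged 0.46 ± 0.42 in HBx,src,p53- OF+R (SD, n = 5) and -0.95 ± 0.23 in HBx,src,p53- R (SD, n = 3), a shift of 1.42 (exact permutation p = 0.036, adjusted p = 0.21). psmb9a minus psmb6 shifted by 1.08 in the same fish (exact permutation p = 0.036, adjusted p = 0.21) and psmb10 minus psmb7 by 0.22 (exact permutation p = 0.61). Only the shift is of use here, since probe sets of different genes differ in brightness for reasons of their own. With 5 against 3 arrays 0.036 is the smallest p this test can give, and with 4 against 3 it is 0.057. After adjustment over the 12 tests no pair could therefore reach 0.05, so the adjusted p cannot decide the question. In WT fish at 10 Gy the shifts were 1.17, 1.00 and -0.05, where 2 arrays against 2 allow no p under 0.33. At 40 Gy they were -0.47, -0.25 and -0.78 in HBx,src fish and 0.35, -0.98 and -0.40 in WT fish.

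Among the activators, psme1 and psme2 form the interferon-induced PA28 ring and psme3 its nuclear relative. psme3 read 3.86, 3.70, 4.16, 3.35 and 3.86 in HBx,src,p53- OF+R and 4.79, 4.13 and 5.08 in HBx,src,p53- R (log2 fold change -0.88, adjusted p = 0.057). No activator or inhibitor was called in the 4 OF comparisons, and psme4b at 10 Gy was the only call between genotypes. Among the 7 assembly factors the calls were psmg2 at 40 Gy and psmg1 and psmd5 at 10 Gy, given above. psmd10 read 5.00, 6.79, 5.71, 4.89 and 7.13 in HBx,src,p53- OF+R and 6.08, 7.05 and 7.13 in HBx,src,p53- R (log2 fold change -0.85, adjusted p = 0.38).

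The brightest probe set was not alone in its direction. Of the 55 genes 23 had several probe sets, and the 55 carried 88 in all. For 18 calls there was at least 1 other probe set, 26 in total, all 26 with a fold change of the same sign and 6 of them called themselves. The other probe sets of psme4b carry identical values and are 1 measurement, although the 26 and the 6 count each of them. Some of the 26 were dim, with mean signals of 1.45 (psmd12), 1.67 (psmd8) and 1.81 (psmc1a), below the array medians. The second probe set of psmd2 fell by 0.52 with OF in HBx,src,p53- fish (adjusted p = 0.35), and that of psmd1 was higher by 1.37 in HBx,src,p53- than in WT R liver (adjusted p = 0.0020).

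Genes that work with the proteasome but lack a psm symbol were read from lists chosen with earlier results of these data known. Of 13 partners measured, with OF in HBx,src,p53- fish 2 fell and 1 rose, where 3.29% of all genes fell and 2.51% rose. The cap deubiquitinases usp14 and uchl5 fell, usp14 to 6.33, 5.81, 5.89, 6.17 and 6.18 in OF+R against 7.45, 7.09 and 7.70 in R (log2 fold change -1.34, adjusted p = 0.018) and uchl5 by 1.27 (adjusted p = 0.044). ecpas, a scaffold that holds the core and the cap and is known from its inhibition of proteasomes, rose, to 8.97, 9.29, 9.32, 9.85 and 8.81 in OF+R against 6.39, 7.52 and 7.02 in R (2.27, adjusted p = 0.0016). In HBx,src fish at 40 Gy ecpas (1.65, adjusted p = 0.030) and txnl1, a thioredoxin bound to the cap (1.59, adjusted p = 0.0019), rose with OF, where 2.11% of all genes rose. txnl1 (-1.22, adjusted p = 0.023) and zfand2a (-0.89, adjusted p = 0.047) were lower in HBx,src R than in WT R liver, where 1.4% of all genes were lower. In WT fish at 10 Gy 1 of 13 rose with OF, zfand5a (2.42, adjusted p = 0.010), where 2.63% of all genes rose. Between HBx,src,p53- and WT R liver 4 of 13 were higher and 0 lower, where 5.35% of all genes were higher and 8.44% lower. Among them were usp14 (1.93, adjusted p = 0.0021), ubxn1 (1.20, adjusted p = 0.014) and zfand1 (1.72, adjusted p = 0.028). The test of the difference between genotypes in the OF effect at 10 Gy called usp14 (-1.92, adjusted p = 0.040), where 1.75% of all genes were lower.

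The p97 list holds the ATPase that extracts proteins from membranes and complexes, and its adaptors. Of its 15 genes 3 fell and 0 rose with OF in HBx,src,p53- fish (3.29% of all genes fell; median of the list -0.65, 2 of 15 positive), namely derl2 (-1.98, adjusted p = 0.016), syvn1 (-1.63, adjusted p = 0.020) and derl1 (-1.15, adjusted p = 0.043), which act in the degradation of endoplasmic reticulum proteins. At 10 Gy without OF 6 of 15 were higher in HBx,src,p53- than in WT (5.35% of all genes; median of the list 0.75), with derl1 at 1.76 (adjusted p = 0.0055), faf1 at 0.69 (adjusted p = 0.0090) and syvn1 at 1.91 (adjusted p = 0.013). In WT fish at 40 Gy 2 rose with OF, nploc4 (1.25, adjusted p = 0.0038) and ubxn7 (1.57, adjusted p = 0.037), where 4.07% of all genes rose. In HBx,src fish at 40 Gy 1 rose, nploc4 (0.64, adjusted p = 0.047), where 2.11% of all genes rose. Of 10 ubiquitin and shuttle genes 1 fell with OF in HBx,src,p53- fish, the activating enzyme uba1 (-0.96, adjusted p = 0.013), where 3.29% of all genes fell. At 10 Gy without OF 3 were higher in HBx,src,p53- than in WT (5.35% of all genes), ubqln4 (1.71, adjusted p = 0.0017), ubb (1.42, adjusted p = 0.0024) and uba6 (1.52, adjusted p = 0.011). In the test of the difference between genotypes in the OF effect at 10 Gy ubqln4 was lower (-1.75, adjusted p = 0.029), where 1.75% of all genes were lower. With OF in WT fish at 40 Gy rad23b rose (1.29, adjusted p = 0.025), where 4.07% of all genes rose.

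With OF in HBx,src,p53- fish at 10 Gy 0 of 13 genes of the Nrf1 and Nrf2 list were called, where 2.51% of all genes rose and 3.29% fell. At an unadjusted p under 0.05 (limma) 3 were higher and 0 lower, where 2389 of 20908 genes were higher and 2241 lower. Of the 13 fold changes 8 were positive and 5 negative, with a median of 0.13. In these fish nfe2l1b, picked after its values were seen, read 6.06, 4.97, 5.44, 6.03 and 6.14 in OF+R. It read 6.24, 5.85 and 6.46 in R, so the groups overlapped. nfe2l1a was lower in HBx,src than in WT fish at 40 Gy, both after OF (-1.85, adjusted p = 0.010) and without it (-1.67, adjusted p = 0.021). maff was also lower in HBx,src than in WT fish at 40 Gy without OF (-2.34, adjusted p = 0.035), where 1.4% of all genes were lower. With OF in WT fish at 40 Gy keap1b rose (1.11, adjusted p = 0.030), where 4.07% of all genes rose. Of 25 genes of MHC class I processing and the interferon response 0 were called with OF in HBx,src,p53- fish, where 2.51% of all genes rose and 3.29% fell. At an unadjusted p under 0.05 (limma) 4 were higher and 0 lower, where 2389 of 20908 genes were higher and 2241 lower. The median of the list was 0.31. In WT fish at 10 Gy 1 was called, the trimming peptidase erap1a (higher with OF, adjusted p = 0.045), where 2.63% of all genes rose. In WT fish at 40 Gy 1 rose with OF, erap1b (1.20, adjusted p = 0.040), where 4.07% of all genes rose. In HBx,src R against WT R liver 3 were higher, where 1.29% of all genes were higher. They were tap1, a subunit of the peptide transporter (2.56, adjusted p = 0.0041), erap1b (1.31, adjusted p = 0.021) and b2m, the light chain of MHC class I (1.56, adjusted p = 0.040). In the same comparison psmb8a and psmb13a differed by 1.23 and 1.18 without passing (adjusted p = 0.17 and 0.30).

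The study's methods call a gene at a fold of 2 or more with p below 0.05, unadjusted. With OF 15 of 55 passed in HBx,src,p53- fish (14 of them lower), where 8.15% of all genes passed in either direction. In HBx,src fish 1 passed (4.26% of all genes), in WT fish at 40 Gy 7 (10.9%), and in WT fish at 10 Gy 5 (14.2%). Between genotypes 6 passed at 40 Gy with OF (5.87%), 6 at 40 Gy without it (7.58%), 1 at 10 Gy with OF (4.21%), and 26 at 10 Gy without it (16%), all 26 of them higher in HBx,src,p53- fish.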

How the data were processed

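The authors deposited log2 signals of 75212 probe sets for 23 ZebGene ST arrays, background-corrected and normalized with Transcriptome Analysis Console, per the labels. Not given in the sources used here: its version, its algorithm, its annotation build, and whether the batches were normalized together. The values were used as they are. Of the probe sets 30358 carried 1 gene symbol in the platform annotation, 1015 several and 43839 none. A gene was represented by its brightest probe set (highest mean over all arrays), and all 57 members matched the RefSeq gene table of GRCz12tu.

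The 8 group means were fitted with limma 3.58.1 (lmFit and eBayes, R 4.3.3, 15 residual degrees of freedom), with Benjamini-Hochberg adjustment across the 75212 probe sets and a threshold of 0.05. The number of arrays limits the precision. The fit was tested on simulated data. The alternatives were a fit to the compared groups alone, a replicate block, array centring, quantile normalization over all arrays or per batch, dropping the dimmest probe sets (25 percent), a trended prior, the study's thresholds, a mean of all probe sets of a gene, and leaving out each array. Leaving out both arrays of low vitellogenin and the exact permutation test of subunit pairs were added after seeing the data.

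Named with values were psmb5 to psmb7, the immunoproteasome genes, up to 4 called members per class and comparison with the smallest adjusted p, the member of each class with the widest range of group means over all 8 groups (a range that crosses the batches and was used only to choose names), and up to 3 called genes per pathway list and comparison. nfe2l1b, psmc3ip, vtg2, the genes of the test of the difference between genotypes, and further called genes given by log2 fold change alone are outside this rule and were chosen after their values were seen. The members and lists were chosen with earlier results of these data known. Figures were drawn with matplotlib 3.10.9.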

Additional observations from a re-analysis of the deposited data

Results flagged for a closer look

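The effect of OF at 10 Gy differed between the genotypes by the test of the difference itself in 4 genes, with values of -1.50 for psmd2, -1.39 for psmd3, -1.42 for psmd13 and -1.37 for psma8 (HBx,src,p53- effect minus WT effect, log2 scale, limma adjusted p = 0.022, 0.031, 0.048 and 0.016). In each the effect was negative in HBx,src,p53- fish and positive in WT fish. These 4 tests use the WT R arrays whose ovary and oocyte markers were high (mean 6.64 and 6.43).

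An array stood far from the others of its group in 5 of 88 tests over named genes and class means in the groups of 4 and 5 arrays, where chance gives about 1 in 20. In HBx,src OF+R, replicate 3 read 7.99 for psmb2 against 7.37 to 7.47 in the others, and 5.81 for psmd14 against 4.90 to 5.04. In the same group replicate 4 read 4.71 for psma6b against 4.01 to 4.12. In HBx,src,p53- OF+R, replicate 3 read 5.13 for psma6b against 5.67 to 5.79, and 7.17 for psmb1 against 7.41 to 7.48.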

How the results depend on the processing

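No named fold change that was called changed sign in any alternative. Medians were not tested. That of OF in HBx,src fish turned to -0.11 and -0.10 under the 2 quantile normalizations, where that in WT fish at 40 Gy was 0.18 and 0.19. It was -0.05 without HBx,src R replicate 1 or OF+R replicate 3. The median of HBx,src against WT R liver turned to -0.0035 without WT R replicate 2. That between HBx,src,p53- and WT after OF and 10 Gy ran from -0.16 to 0.07 over the alternatives. Counts of called members below are of 55, and the cause of their changes was not tested unless fewer arrays give it.

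Fitting the compared groups alone gave, for OF, 0 genes in WT at 40 Gy, 0 in HBx,src and 7 in HBx,src,p53-, and between genotypes 0 (40 Gy), 1 (OF and 40 Gy) and 5 (10 Gy). Deviations from the group means correlated at -0.041 to 0.155 between OF+R and R arrays of the same replicate number. With so few arrays in a group these correlations cannot decide whether the numbers pair the arrays. With the number as a replicate block, OF gave 3 in WT at 40 Gy, 1 in HBx,src, 2 in WT at 10 Gy and 1 in HBx,src,p53-. The block gave 0 for the difference between genotypes in the OF effect at 10 Gy, and between genotypes 0 (40 Gy), 0 (OF and 40 Gy) and 4 (10 Gy). Both quantile normalizations gave 2 in WT at 40 Gy and 0 in HBx,src. A trended prior gave 3, 1 and, for the difference at 10 Gy, 2. The study's thresholds gave 1 in HBx,src, 5 in WT at 10 Gy, and between genotypes 6 (40 Gy), 6 (OF and 40 Gy) and 1 (OF and 10 Gy). Averaging all probe sets of a gene gave 4 in HBx,src and 7 for the difference at 10 Gy. Without both low-vitellogenin arrays 1 gene was called between genotypes after OF and 10 Gy.

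Leaving out 1 array at a time gave 1 to 6 genes for OF in WT at 40 Gy, 0 to 1 in HBx,src and 2 to 19 in HBx,src,p53-. Between genotypes it gave 1 to 2 (40 Gy, where psmg2 was lost without WT R replicate 1 and another gene was called), 0 to 3 (OF and 40 Gy) and 5 to 21 (10 Gy), and for the difference in the OF effect 0 to 1 (40 Gy) and 0 to 4 (10 Gy). Of fold changes of single genes, 977 kept their direction and side of the threshold or moved by less than the spread, 227 lost the threshold, 7 gained it and 32 moved. Array centring shifted the median of all genes by 0.15 in WT at 40 Gy. Groups of 2 arrays limit every WT comparison.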
